A study of Mus musculus with 39 samples.

Results

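The genes described here are 36 genes of the endoplasmic reticulum (ER) chaperone and unfolded protein response system, taken by symbol from a fixed list of names in a table of 55416 mouse gene identifiers. They fall into 4 role groups, with 15 ER chaperones and folding enzymes, 9 genes of ER-associated degradation and the translocon, 7 sensors and transcription factors of the unfolded protein response, and 5 targets of the integrated stress response. All 36 were found in the table and all 36 were among the 15296 genes with enough counts to be tested. Their levels were read from RNA sequencing of whole liver in 39 male mice, each mouse giving 1 library. The animals were homozygous for the CD163tm1(KOMP)Vlcg allele (knockout) or were their wildtype littermates, all born to heterozygous C57BL/6NTac parents. CD163, a macrophage receptor, takes up haemoglobin that is bound to haptoglobin. Starting at 6 weeks of age and lasting 8 weeks, feeding was with chow and normal water or with Western diet plus fructose water. Chow was eaten by 5 wildtype and 4 knockout mice and Western diet by 15 mice of each genotype, and replicates carry the letters of their labels. The knockout is of the whole animal, whereas the liver samples were whole tissue. In such bulk RNA, fewer cells of a type and less RNA per cell cannot be told apart.

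Proteins that are secreted or sit in membranes fold in the ER, and hepatocytes, which make most plasma proteins, carry a large load of them. When unfolded protein builds up, the chaperone BiP (Hspa5) is drawn from 3 sensors in the ER membrane, IRE1 (Ern1), ATF6 (Atf6) and PERK (Eif2ak3). IRE1 splices the mRNA of Xbp1, ATF6 is cut to free a transcription factor, and both raise chaperone and degradation genes. PERK phosphorylates a translation factor, which slows protein synthesis in general and favours the translation of Atf4. ATF4 then raises genes of amino acid supply and stress, among them Asns, Chac1, Trib3 and Ddit3, and it does so also after amino acid shortage, without ER stress. The counts are per gene, so neither the splicing of Xbp1 nor the cleavage or phosphorylation of the sensors can be read from them.

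Library totals lay between 8578865 and 30438808 counts, with a median of 14573193. Cd163 held to its labels, with 2.59 to 15.8 CPM (counts scaled to the library total) in the 20 wildtype livers and at most 0.745 CPM in the 19 knockout livers. In 4 libraries the cholesterol synthesis genes, whose mean log2 CPM separated the diets otherwise, lay on the side of the other diet. Wildtype chow A and knockout chow D stood at 5.32 and 5.36, against 6.65 to 7.17 in the other chow livers. Wildtype Western diet A and knockout Western diet M stood at 7.11 and 7.13, against 4.76 to 6.32 in the other Western diet livers. Diet counts, and the values of members that passed in either fit, are therefore given for all 39 livers and again without these 4 libraries, an alternative added after the data had been seen. These libraries were picked by genes that differ with diet, so larger diet differences without them may stem in part from that choice. Hepatocyte markers were high throughout, with all 14 listed genes tested and 67200 to 114000 CPM in sum.

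Set per kilobase of exon, the most abundant members were folding genes and the least abundant were genes of stress signalling, with the role groups overlapping in between. Averaged over 39 livers, P4hb stood highest at 563 CPM per kb, ahead of Calr at 456, Hspa5 at 366 and Hsp90b1 at 316. P4hb is a protein disulfide isomerase, Calr (calreticulin) a chaperone of glycoproteins, and Hsp90b1 the HSP90 of the ER. The ER membrane sensors were scarce, with 10.4 CPM per kb for Ern1, 5.73 for Atf6 and 3.33 for Eif2ak3. The lowest levels were those of Trib3 at 3.06, Asns at 2.47 and Atf3 at 1.01 CPM per kb. Xbp1 at 90.7 and Atf4 at 57.6 CPM per kb stood above several chaperones, such as Dnajc3 at 52.6. In raw terms the lowest value of any member was 6 counts, for Asns in knockout Western diet J, so values of Asns, Derl3 and Atf3 in their lowest livers rest on few reads.

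Upstream sequence is shown as background. Its relation to how members moved from liver to liver, given further on, was not tested. Promoter windows from 250 bases before to 50 after the start, from RefSeq on assembly GRCm38.p6, were at hand for 31 of the 36 members. They were searched on both strands for the ER stress element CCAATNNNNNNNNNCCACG, which ATF6 and the protein of spliced Xbp1 are known to bind, together with the factor NF-Y. In 9 of the 31 windows (29.0%) the element was present, against 37 of the 27025 genes in the table (0.137%). These were Hspa5, Hsp90b1, Calr, Canx, Pdia6, Dnajc3 and Creld2 of the chaperone group, and Syvn1 and Derl3 of the degradation group. The list holds genes of the response that these factors drive, so its choice already favours a share above that of all genes. Only exact matches were counted, so windows without one may hold near forms of the element. A match is a description of letters and not a measured site of binding. The sites of 4 members, with levels from 366 (Hspa5) to 14.2 CPM per kb (Derl3), are printed here. They are read on the strand of the element, with its fixed bases in capitals.
Hspa5, chr2:34772025-34772043, plus strand, 65 to 47 bases before the start: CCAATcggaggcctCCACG
Hsp90b1, chr10:86705638-86705656, minus strand, 212 to 194 bases before the start: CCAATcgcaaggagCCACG
Syvn1, chr19:6046532-6046550, plus strand, 44 to 26 bases before the start: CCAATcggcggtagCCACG
Derl3, chr10:75893242-75893260, minus strand, 156 to 138 bases before the start: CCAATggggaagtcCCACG

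Hsp90b1 carried a second site within its window, on the opposite strand, at chr10:86705533-86705551 (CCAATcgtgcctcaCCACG). The Hspa5 promoter is shown around its exact match to the element, at chr2:34771915-34772064 on the plus strand, with the fixed bases of the match in capitals. Near-matches in the stretch are not marked. The Creld2 promoter is shown up to the base before its start, at chr15:88819496-88819645 on the plus strand, where the element lies on the opposite strand and reads as CGTGG and ATTGG in capitals.
Hspa5: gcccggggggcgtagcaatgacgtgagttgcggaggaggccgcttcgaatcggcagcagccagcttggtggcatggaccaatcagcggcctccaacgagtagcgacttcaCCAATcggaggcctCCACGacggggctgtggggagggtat
Creld2: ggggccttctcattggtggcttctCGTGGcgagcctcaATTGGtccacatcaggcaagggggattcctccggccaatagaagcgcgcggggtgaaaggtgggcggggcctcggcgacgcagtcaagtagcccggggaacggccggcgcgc

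A shorter form, ER stress element II (ATTGGNCCACG), was found in the windows of Herpud1 and Dnajb11 (2 of 31, or 6.45%), against 12 of all genes (0.0444%). The ATF4 element TGATGNAA, which binds ATF4 together with a C/EBP partner, was found in 5 of 31 windows (16.1%), against 1219 of all genes (4.51%). Those 5 were Herpud1, Atf3, Trib3, Asns and Chac1, so 3 of the 5 integrated stress response targets held it. The site of Asns is TGATGaAA, at chr6:7693225-7693232 on the minus strand, and that of Chac1 is TGATGcAA, at chr2:119351049-119351056 on the minus strand. Herpud1 held both element II and the ATF4 element, and none of the 9 windows with the ER stress element held the ATF4 element.

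Averaged over the 2 genotypes, Western diet livers differed from chow livers in 5 of the 36 members. P4hb, Derl1, Atf6 and Chac1 were higher, and Atf4 was lower. The count of 5 (13.9%) lies near the share of all tested genes called in this comparison, which was 14.6%, so this count is no result about the members as a group. The 4 higher and 1 lower members stand beside 7.84% of all genes higher and 6.77% lower. The test was edgeR's quasi-likelihood test on the counts, with Benjamini-Hochberg adjusted p below 0.05 over all tested genes. Its p-values set the difference between groups against the spread between mice. The log2 fold changes of the members had a median of 0.19, with 30 positive and 6 negative, beside a median of -0.002 over all tested genes. Many members moved together from liver to liver, as given further on, so their signs are not independent. Without the 4 libraries, 10 members were called (27.8%, against 29.9% of all genes, 16.0% higher and 13.9% lower), with Canx, Edem1, Sec61a1 and Sesn2 added to the higher ones and Asns to the lower ones.

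**Figure D1:**
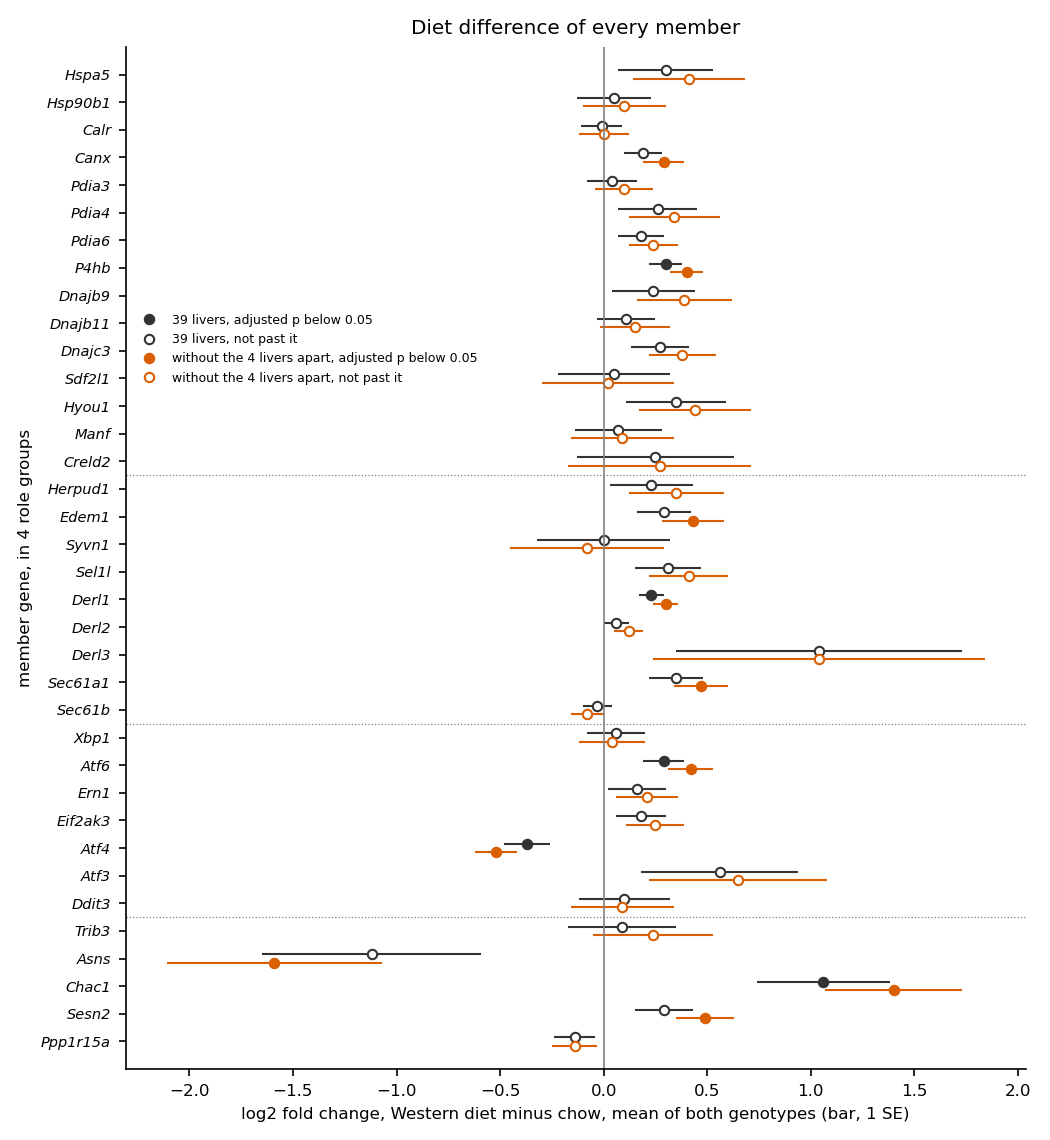
Log2 fold change of each of the 36 members, Western diet minus chow, as the mean of both genotypes with 1 SE, for 39 livers (dark) and without the 4 livers apart (orange). Filled symbols passed an adjusted p of 0.05, 5 in the first fit and 10 in the second, and the widest bars are those of Derl3 and Asns.

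Among the chaperones and folding enzymes, P4hb alone passed the test. It forms disulfide bonds and is also a subunit of the microsomal triglyceride transfer protein, which loads lipid onto lipoproteins, and of the collagen prolyl hydroxylase. P4hb had 1560, 1460, 1570, 1280 and 1540 CPM in the wildtype chow livers and 1240, 1070, 1230 and 1470 CPM in the knockout chow livers. On Western diet it ran from 1330 through a median of 1690 to 2150 CPM in wildtype livers and from 1180 through 1660 to 2310 CPM in knockout livers. Of the 30 Western diet livers 28 lay above the chow mean, and the 2 lowest, wildtype A and knockout M, were libraries named above. The diet groups overlapped. The log2 fold change of P4hb was 0.30 ± 0.08 (SE, adjusted p = 0.0127), and 0.40 ± 0.08 (adjusted p = 0.000469) without the 4 libraries, where 28 of 28 livers lay above the chow mean. The groups overlapped there too, with chow up to 1570 CPM and Western diet from 1400 CPM. Without knockout chow B the call was lost, at 0.27 and an adjusted p of 0.0649.

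The other 14 chaperones did not pass, with fold changes from -0.01 for Calr to 0.35 for Hyou1 on the log2 scale. Canx (calnexin), the membrane-bound partner of calreticulin, had 326 to 476 CPM in wildtype chow and 343, 245, 351 and 381 CPM in knockout chow livers. On Western diet it ran from 326 through 430 to 541 CPM in wildtype and from 335 through 390 to 609 CPM in knockout livers, overlapping with chow. Its fold change was 0.19 ± 0.09 (adjusted p = 0.152), and 0.29 ± 0.10 (adjusted p = 0.0231) without the 4 libraries, where 25 of 28 livers were above the chow mean. Hspa5, the chaperone that binds the sensors, had 2330, 1250, 1920, 693 and 1470 CPM in wildtype chow and 647, 937, 1860 and 1010 CPM in knockout chow livers. On Western diet Hspa5 ran from 743 through 1490 to 2590 CPM in wildtype and from 733 through 1200 to 2810 CPM in knockout livers. The 4 groups of Hspa5 values covered nearly the same range, and only 14 of 30 Western diet livers lay above the chow mean. Its fold change was 0.41 ± 0.27 (adjusted p = 0.254) without the 4 libraries. With all livers it was 0.30 ± 0.23 (adjusted p = 0.391), the same size as that of P4hb with an SE nearly as large as the change.

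**Figure D2:**
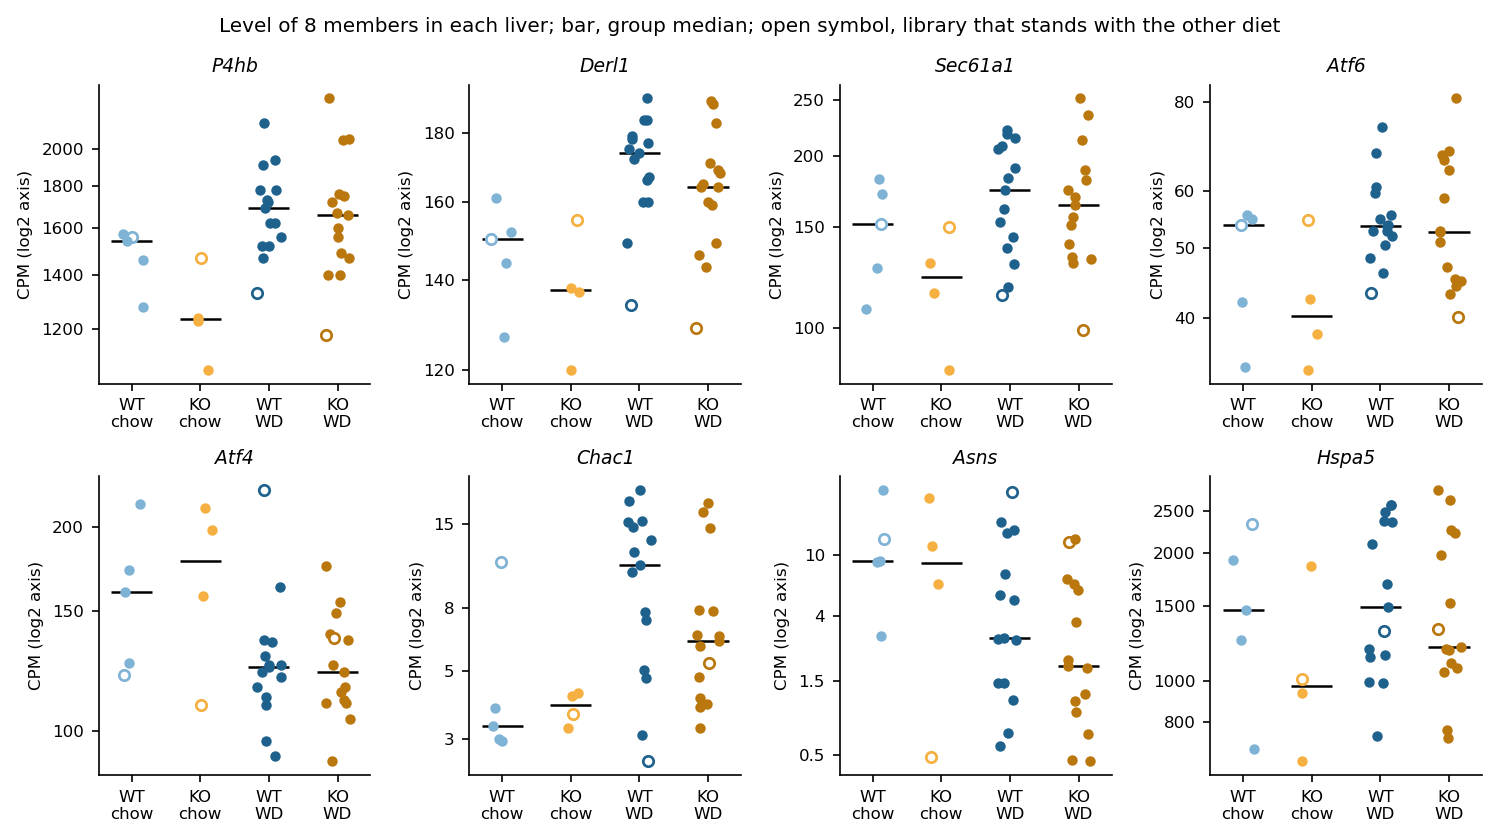
Levels of 8 members in CPM (log2 axis) in each of 39 livers, by genotype (WT, wildtype; KO, knockout) and diet (WD, Western diet), with bars at group medians and open symbols for the 4 libraries on the side of the other diet. P4hb, Derl1 and Atf6 sit higher and Atf4 lower on Western diet, the open symbols of the Western diet groups are the lowest of their group for P4hb, Derl1 and Atf6, and Hspa5 covers 647 to 2330 CPM on chow and 733 to 2810 CPM on Western diet.

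In the degradation and translocon group, Derl1 passed and Sec61a1 came close. Derl1 is a derlin, a membrane protein through which misfolded proteins leave the ER. It had 150, 144, 152, 127 and 161 CPM in wildtype chow and 137, 120, 138 and 155 CPM in knockout chow livers. On Western diet Derl1 ran from 134 through 174 to 191 CPM in wildtype and from 129 through 164 to 190 CPM in knockout livers. Of 30 Western diet livers 28 were above the chow mean, and the 2 below it were again wildtype A and knockout M, so the diet groups overlapped. The log2 fold change of Derl1 was 0.23 ± 0.06 (adjusted p = 0.00843), and 0.30 ± 0.06 (adjusted p = 0.000142) without the 4 libraries. Without knockout chow B it was 0.20, with an adjusted p of 0.0554. Sec61a1 forms the pore through which new chains enter the ER. It had 152, 171, 127, 108 and 182 CPM in wildtype chow, 115, 84.4, 130 and 150 CPM in knockout chow, 114 to 222 CPM (median 174) in wildtype Western diet and 99.1 to 252 CPM (median 164) in knockout Western diet livers. The groups overlapped, and 23 of 30 Western diet livers were above the chow mean. The change of Sec61a1 was 0.35 ± 0.13 (adjusted p = 0.0559), and 0.47 ± 0.13 (adjusted p = 0.00667) without the 4 libraries.

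Edem1, which hands mannose-trimmed glycoproteins to degradation, had a fold change of 0.29 ± 0.13 (adjusted p = 0.119), and 0.43 ± 0.15 (adjusted p = 0.0253) without the 4 libraries. The related derlins gave other values, with 0.06 ± 0.06 for Derl2 and 1.04 ± 0.69 for Derl3, neither past the threshold (adjusted p = 0.533 and 0.309). Sec61b, the small subunit of the same pore, was at -0.03 ± 0.07 (adjusted p = 0.815). Syvn1, the ubiquitin ligase of the pathway, and its partner Sel1l did not pass either (adjusted p = 0.998 and 0.198).

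Among the sensors and transcription factors, Atf6 was higher and Atf4 lower on Western diet. Atf6 had 53.9, 55.7, 42.1, 34.2 and 55.0 CPM in wildtype chow and 38.0, 33.9, 42.5 and 54.7 CPM in knockout chow livers, and its Western diet values were 43.3 to 73.8 CPM (median 53.7) in wildtype and 40.1 to 80.9 CPM (median 52.7) in knockout livers. The groups overlapped, with 24 of 30 Western diet livers above the chow mean. The log2 fold change of Atf6 was 0.29 ± 0.10 (adjusted p = 0.0465), the weakest of the 5 calls. Leaving out 1 library ended the call of Atf6 in 20 of 39 fits (adjusted p 0.0501 to 0.169). The 5 chow libraries among them were wildtype C and D and knockout A, B and C, and the 15 Western diet libraries were wildtype C, D, E, F, H, I, J and L and knockout A, B, C, D, E, F and L. Over 8 alternatives its adjusted p lay between 0.00255 and 0.0816, and the call was lost without a filter on low counts (0.0816) and with wildtype Western diet L and M summed (0.0511). Without the 4 libraries the change was 0.42 ± 0.11, and 28 of 28 Western diet livers lay above the chow mean. The groups still overlapped, at 33.9 to 55.7 CPM on chow and 43.2 to 80.9 CPM on Western diet.

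Atf4 had 121, 126, 160, 216 and 173 CPM in wildtype chow and 198, 158, 213 and 109 CPM in knockout chow livers. On Western diet it ran from 91.9 through 124 to 227 CPM in wildtype and from 90.1 through 122 to 175 CPM in knockout livers. The highest Western diet value belonged to wildtype A and the lowest chow value to knockout D, both libraries on the side of the other diet. Of 30 Western diet livers 28 lay below the chow mean. The log2 fold change of Atf4 was -0.37 ± 0.11 (adjusted p = 0.0238), and -0.52 ± 0.10 (adjusted p = 0.000122) without the 4 libraries, where 28 of 28 lay below. The groups overlapped there too, with chow from 126 CPM and Western diet up to 175 CPM. Leaving out knockout chow A, knockout chow C or wildtype chow D ended the call, with adjusted p from 0.0725 to 0.103 and changes from -0.32 to -0.30. The adjusted p of Atf4 lay between 0.000122 and 0.288 over 8 alternatives, and was 0.0855 with the library number as a covariate and 0.0555 without a filter on low counts. The sensors Ern1 (0.16 ± 0.14) and Eif2ak3 (0.18 ± 0.12), the factor Xbp1 (0.06 ± 0.14) and the stress factors Atf3 (0.56 ± 0.38) and Ddit3 (0.10 ± 0.22) did not pass, with adjusted p from 0.319 to 0.806.

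Of the integrated stress response targets, Chac1 alone passed. Chac1, an enzyme that breaks down glutathione, had 11.3, 3.01, 2.97, 3.30 and 3.78 CPM in wildtype chow and 4.15, 3.25, 4.23 and 3.61 CPM in knockout chow livers. The value of 11.3 belonged to wildtype chow A, and the other 8 chow livers lay within 2.97 to 4.23 CPM. On Western diet Chac1 ran from 2.54 through 11 to 19.4 CPM in wildtype and from 3.27 through 6.27 to 17.5 CPM in knockout livers, so that the groups overlapped and 24 of 30 lay above the chow mean. The lowest of the wildtype Western diet values was that of A. The log2 fold change of Chac1 was 1.06 ± 0.32 (adjusted p = 0.0235), and 1.4 ± 0.33 (adjusted p = 0.0019) without the 4 libraries. Leaving out knockout chow B, knockout chow C or wildtype chow D gave 1.01 to 1.09 with adjusted p from 0.0512 to 0.0726. Over 8 alternatives its adjusted p lay between 0.0019 and 0.129, and without a filter on low counts it was 0.0586.

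Asns, which makes asparagine, spanned 0.451 to 26.7 CPM, a 59.1-fold range that crossed the groups. It had 12.7, 9.11, 9.07, 2.95 and 26.7 CPM in wildtype chow and 23.7, 11.4, 6.44 and 0.485 CPM in knockout chow livers. On Western diet it ran from 0.565 through 2.88 to 25.9 CPM in wildtype and from 0.451 through 1.88 to 12.7 CPM in knockout livers. The value of 0.485 was that of knockout chow D and the value of 25.9 that of wildtype Western diet A. Its log2 fold change of -1.12 ± 0.53 did not pass (adjusted p = 0.145), and that without the 4 libraries, -1.59 ± 0.52, did (adjusted p = 0.0206, 25 of 28 livers below the chow mean). Sesn2, a sestrin that restrains growth signalling under amino acid shortage, was at 0.29 ± 0.14 (adjusted p = 0.155), and at 0.49 ± 0.14 (adjusted p = 0.00629) without the 4. Trib3, a pseudokinase, was at 0.09 ± 0.26 and Ppp1r15a, which recruits the phosphatase that ends the translation block, at -0.14 ± 0.10, with adjusted p of 0.839 and 0.333.

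Within wildtype mice none of the 36 members passed between the diets, against 1.39% of all genes (0.771% higher and 0.615% lower). The same edgeR test gave 3 members at an unadjusted p under 0.05, as it did 17.2% of all genes. DESeq2 called 0 members and 3.37% of all genes, and limma voom 1 member and 6.67%. Without wildtype chow A, the liver with the high Chac1 value, Chac1 passed at 1.70 (adjusted p = 0.0361), as did 3.64% of all genes. Without the 4 libraries Derl1, Chac1 and Atf4 passed in wildtype mice (8.33%, against 8.66% of all genes, 4.26% higher and 4.4% lower), at 0.24, 1.78 and -0.47. Within knockout mice none passed, against 0.00654% of all genes, with 12 members and 19.2% of all genes at an unadjusted p under 0.05. DESeq2 called 1 member and 1.5% of all genes, and limma voom 3 members and 5.26%. Without knockout chow D, 4 members and 9.06% of all genes passed, and without knockout Western diet M 1 member and 2.79% of all genes passed. Without the 4 libraries 7 members passed in knockout mice (19.4%, against 17.2% of all genes, 9.69% higher and 7.5% lower), namely Canx, P4hb, Derl1, Sec61a1, Atf6 and Sesn2 higher and Atf4 lower. No member passed the test of the difference between the genotypes' diet effects.

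**Figure D3:**
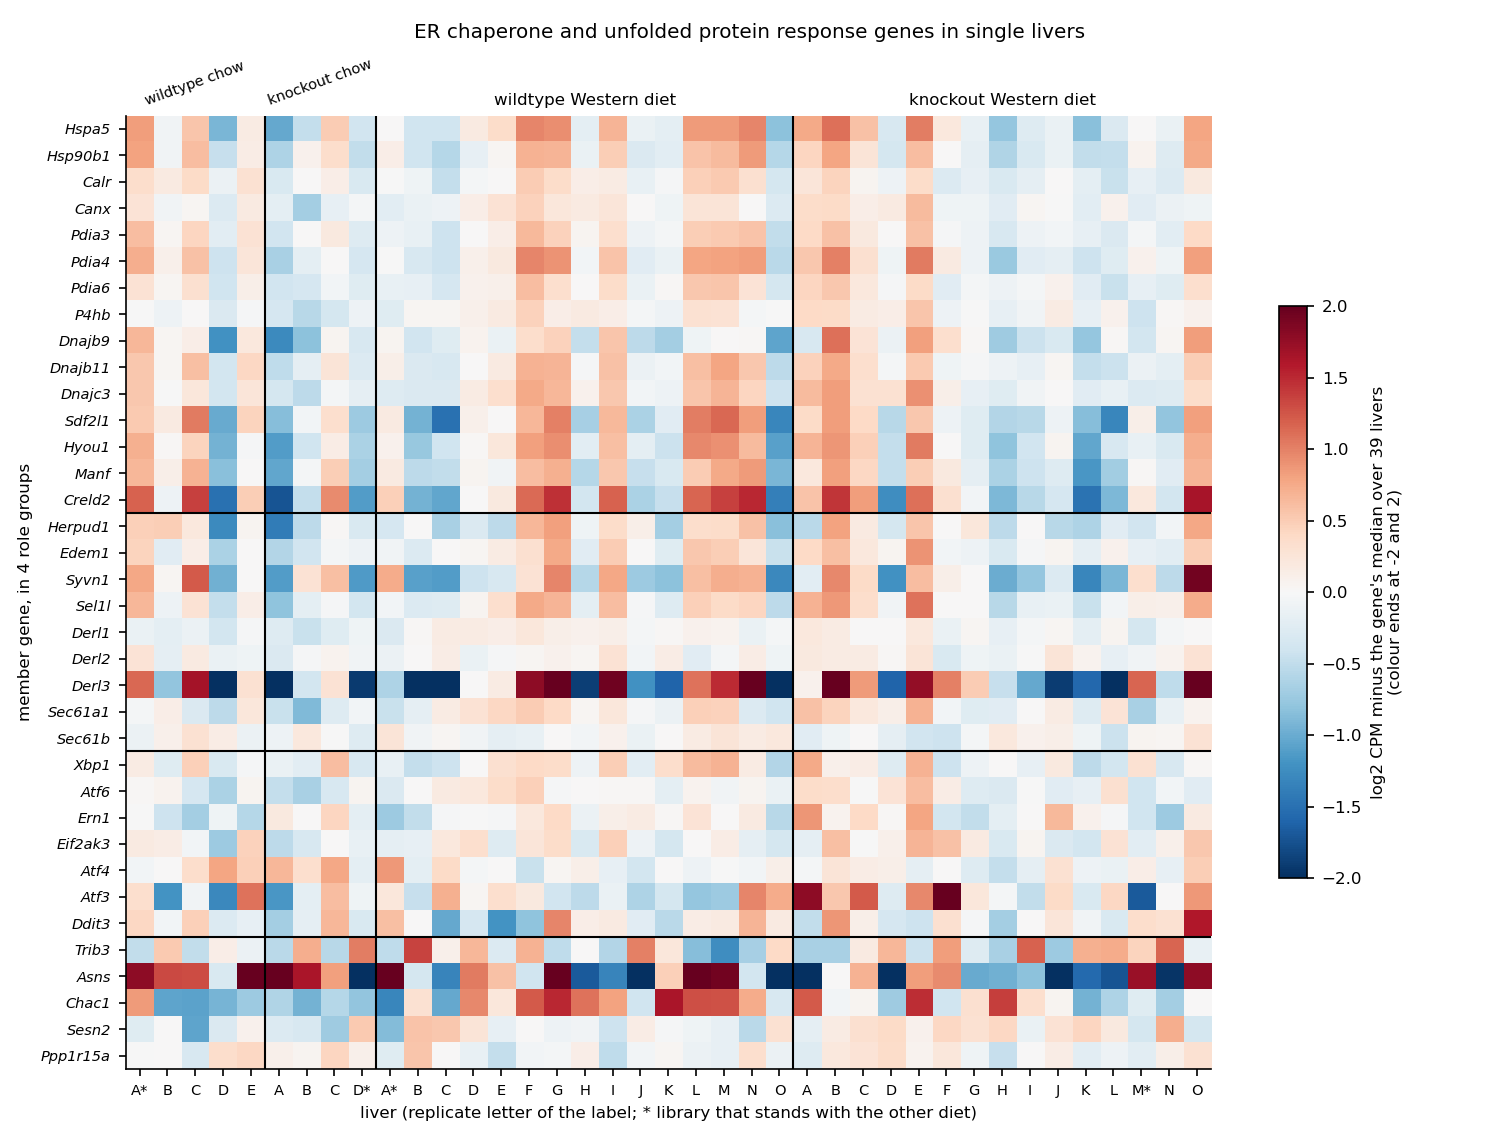
Each of the 36 members (rows, in 4 role groups) in each of 39 livers (columns, by group and replicate letter), as log2 CPM minus the median of the gene over all livers, with colours ending at -2 and 2. The chaperones share a colour in many columns, as in the red columns of F, G, I, L, M and N among the wildtype livers on Western diet, while Derl1, Derl2 and Sec61b stay close to 0 throughout.

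Loss of Cd163 was compared on each diet. On Western diet none of the 36 members passed (0.00654% of all genes did), 1 had an unadjusted p under 0.05 in edgeR (5.08% of all genes did), and DESeq2 and limma voom called 0. That member was Atf3, an early stress factor, with 0.907 to 3.06 CPM (median 1.42) in wildtype and 0.482 to 16.2 CPM (median 2.03) in knockout livers. The groups overlapped, and the highest knockout value, in F, stood far above the next, 5.35 CPM in A. The log2 fold change of Atf3, knockout minus wildtype, was 0.98 ± 0.35 (adjusted p = 0.943), and lay between 0.42 and 1.07 when single libraries were left out. The next smallest p in each role group belonged to Calr (-0.15 ± 0.10), Sec61b (-0.09 ± 0.07) and Chac1 (-0.49 ± 0.28), with adjusted p of 0.943 to 0.959. Calr ran from 907 through 1270 to 1820 CPM in wildtype and from 923 through 1130 to 1720 CPM in knockout Western diet livers, with 1160 to 1650 CPM and 1020 to 1380 CPM in the chow groups. Sec61b stayed between 55.2 and 91.4 CPM in all 39 livers, with medians of 74.2 and 71.8 CPM in wildtype and knockout livers on Western diet. For both genes the groups overlapped. Over the members the differences had a median of -0.04, beside 0.009 over all genes, with 13 positive and 23 negative. These signs are not independent either. Without the 4 libraries none of the 36 passed either, against 0.00647% of all genes, on this diet or on chow.

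On chow none passed either (0.00654% of all genes did), 0 had an unadjusted p under 0.05 in edgeR (2.74% of all genes did), and DESeq2 and limma voom called 0. The fitted difference, knockout minus wildtype, was below 0 for 30 of 36 members, none of them called, with a median on the log2 scale of -0.32 beside 0.004 over all genes, and -0.23 beside -0.021 without the 4 libraries. As members moved together on Western diet, these signs are not to be read as separate observations of a genotype difference. Sel1l, the partner of the ubiquitin ligase, had 286, 167, 221, 129 and 197 CPM in wildtype and 103, 157, 178 and 139 CPM in knockout chow livers, overlapping, with a difference of -0.48 ± 0.28 (adjusted p = 1). Canx was at -0.30 ± 0.16 and Trib3 at 0.38 ± 0.45, both with an adjusted p of 1. Trib3 had 3.98, 8.06, 3.96, 6.12 and 5.16 CPM in wildtype and 3.83, 9.22, 3.81 and 11.4 CPM in knockout chow livers, where the highest value was that of D, and medians of 5.59 and 6.35 CPM on Western diet. Ern1, the IRE1 sensor, went the other way, with 83.1, 62.7, 51.9, 78.9 and 56.5 CPM in wildtype and 95.4, 84.4, 113 and 73.2 CPM in knockout chow livers, a difference of 0.46 ± 0.24 (adjusted p = 1). On Western diet the medians of Ern1 were 83.5 CPM in wildtype and 84.9 CPM in knockout livers, and those of Sel1l 186 and 180 CPM.

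The test of the difference between diet effects (knockout minus wildtype) called none of the members and 0.0% of all genes, with 0 members and 1.86% of all genes at an unadjusted p under 0.05 in edgeR and 0 calls by DESeq2 and limma voom. It is made from the same livers as the comparisons above. Dnajb9, a BiP co-chaperone that holds IRE1 inactive, came nearest in its group. Dnajb9 had 158, 103, 109, 43.0 and 116 CPM in wildtype chow, 41.2, 56.8, 104 and 79.6 CPM in knockout chow, 48.2 to 147 CPM (median 94.3) in wildtype Western diet and 58.6 to 215 CPM (median 101) in knockout Western diet livers. Its diet effects were -0.16 ± 0.26 in wildtype and 0.64 ± 0.30 in knockout mice, and their difference was 0.80 ± 0.40 (adjusted p = 1). For Sel1l, Eif2ak3 and Asns the differences were 0.53 ± 0.32, 0.43 ± 0.24 and -0.59 ± 1.11, all with an adjusted p of 1. Eif2ak3, the PERK sensor, had 11.7 to 26.5 CPM in wildtype chow, 13.4 to 19.4 CPM in knockout chow, 15.1 to 26.8 CPM (median 17.9) in wildtype Western diet and 15.0 to 31.0 CPM (median 20.7) in knockout Western diet livers, so all 4 groups overlapped. Atf3 had 0.633 to 3.30 CPM in wildtype and 0.691 to 2.37 CPM in knockout chow livers.

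Other genes of the secretory pathway were set beside the members. In a list of ER-to-Golgi transport genes, 9 of 20 tested genes were higher on Western diet and 0 lower, with a median log2 fold change of 0.19. Its 3 smallest p-values belonged to Surf4 and Mcfd2, a cargo receptor and the partner of one, and to Sec22b, a fusion protein of transport vesicles, at 0.26, 0.23 and 0.33 (adjusted p 0.0126 to 0.0197). Among other translocon, signal peptidase and glycosylation genes 5 of 24 were higher and 0 lower, with Rpn2 at 0.25 and Stt3b at 0.33 of the oligosaccharyl transferase (adjusted p = 0.0215 and 0.0284). Srp54a, at 0.79, has near-identical copies in the mouse genome between which reads may be split, so its value is uncertain. Other degradation genes gave 4 higher, such as Nploc4 (0.30) and Vcp (0.20) of the extraction machinery, and 2 lower, Selenok (-0.41) and Aup1 (-0.17), of 18.

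Other folding enzymes gave 1 call of 19, Calu (0.28, adjusted p = 0.02), a calcium-binding protein, while Ero1a and Hspa13 did not pass (adjusted p = 0.0777 and 0.1). Of 13 other regulators 3 were higher, namely Mbtps1, the protease that cuts ATF6 (0.28), Creb3l3, an ER-bound transcription factor of hepatocytes (0.24), and Nrbf2 (0.30). Of 31 other integrated stress response genes 3 were higher, with Atf5 at 0.33, Gpt2 at 0.27 and Shmt2 at 0.16, and 1 was lower, Cth at -0.77 (adjusted p = 0.00114). These lists were chosen with results of the data known, and the 14.6% of all genes called is the share to read them against. In the fit without the 4 libraries, where 29.9% of all genes were called, ER-to-Golgi transport had 15 higher and 0 lower, the translocon list 11 and 1, other degradation genes 6 and 3, other folding enzymes 4 and 2, other regulators 5 and 0, and other integrated stress response genes 7 and 2.

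Within a group, many members spread widely from liver to liver. Over the 15 wildtype Western diet livers the SD of log2 CPM was 0.60 for Hspa5, 1.01 for Creld2, 0.87 for Sdf2l1, 0.81 for Syvn1 and 2.13 for Derl3, whereas it was 0.13 for Derl1 and for Derl2. In knockout Western diet livers the same genes had SDs of 0.61, 0.96, 0.64, 0.89 and 1.69, and of 0.15 and 0.17. The median of all genes with a mean of at least 10 CPM was 0.19 in wildtype and 0.22 in knockout livers. Of the members at that level, 29 of 33 exceeded it in wildtype and 29 of 32 in knockout livers, compared at 2 decimals. At 0.22, Sec61b thus counted as a tie in knockout livers, though it lay at percentile 51.7. Creld2, a small ER protein raised by ER stress, ran from 51.8 through 154 to 380 CPM in wildtype and from 48.0 through 129 to 420 CPM in knockout Western diet livers. Chow livers covered the same span, with 303, 125, 346, 47.7 and 189 CPM in wildtype and 40.5, 96.5, 257 and 61.8 CPM in knockout mice. Syvn1 reached 1760 CPM in knockout Western diet O, while the other livers of that group lay between 188 and 904 CPM.

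Within a diet and genotype, most chaperones followed Hspa5. The correlation of log2 CPM with Hspa5 was computed over the 15 livers of each Western diet group apart, with p from 100000 two-sided permutations and adjusted over all tested genes in both groups (30590 relations), for which 1e-05 is the smallest p that they can give. Hspa5 values ran from 743 to 2590 CPM in wildtype livers, with none between 1690 and 2090 CPM, and from 733 to 2810 CPM in knockout livers, with none between 1520 and 1970 CPM, steps that were small beside the whole range. In wildtype livers 19 of 35 other members (54.3%) passed, all with a positive r, against 6.13% of all genes. In knockout livers 16 of 35 (45.7%) passed, all positive, against 2.05% of all genes. The median r of the members was 0.81 in wildtype and 0.72 in knockout livers, beside -0.01 over all genes in wildtype livers. Points share their libraries, so a gene pair's r also reflects what the scaling of a library does to both genes.

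The closest followers were other chaperones of the ER lumen. Pdia4, a disulfide isomerase, ranked first of 15295 genes in wildtype livers with r = 0.99 (Spearman's rho = 0.98, adjusted p = 0.00443), and second in knockout livers with r = 0.97 (rho = 0.94, adjusted p = 0.00443). Hyou1, which exchanges the nucleotide of BiP, had r = 0.98 (rank 3) and r = 0.99 (rank 1). The ER chaperones Hsp90b1 (0.97 and 0.97), Manf (0.96 and 0.95) and Creld2 (0.97 and 0.94) and the ligase partner Sel1l (0.96 and 0.97) lay among the first 9 genes in both groups. Derl3 had r = 0.97 in wildtype and 0.78 in knockout livers. Of 14 other chaperones and folding enzymes 13 passed in wildtype and 12 in knockout livers, with medians of 0.96 and 0.89. P4hb, the chaperone called between the diets, did not (r = 0.55, adjusted p = 0.198, and r = 0.71, adjusted p = 0.0582).

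**Figure D4:**
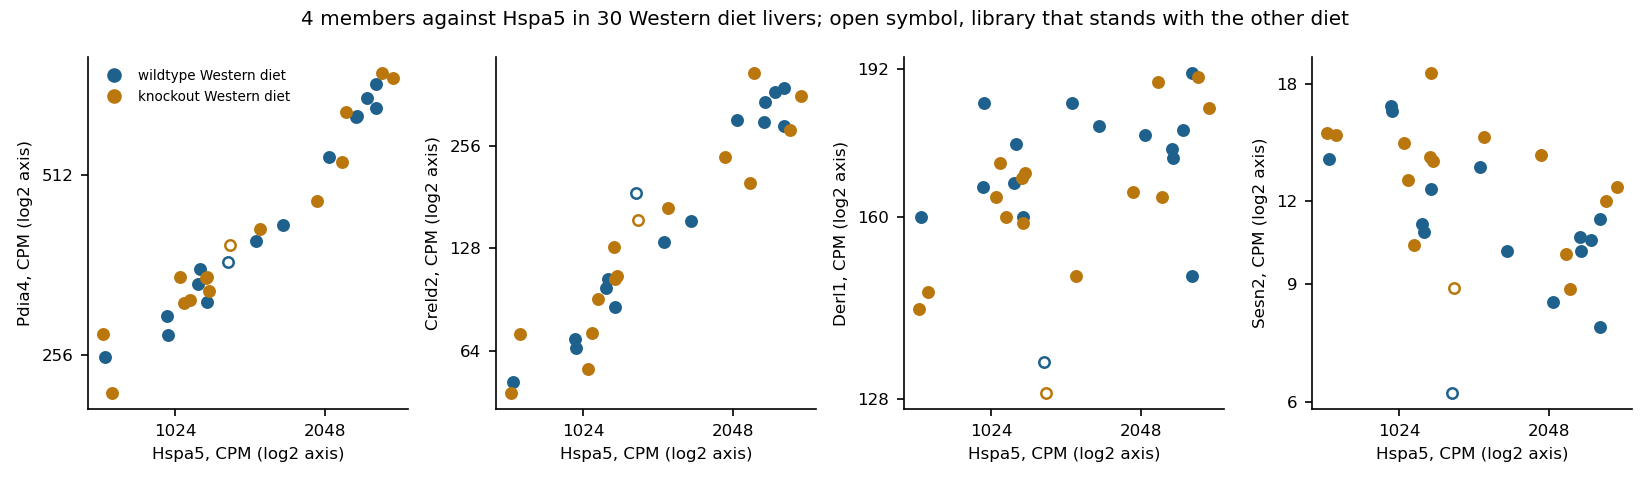
Pdia4, Creld2, Derl1 and Sesn2 against Hspa5 in CPM (log2 axes), with a point for each of 30 Western diet livers, blue for wildtype and brown for knockout, and open symbols for the 2 libraries on the side of chow. Pdia4 and Creld2 rise with Hspa5 along a line (r = 0.99 and 0.97 in wildtype, 0.97 and 0.94 in knockout livers), Derl1 stays within 129 to 191 CPM, and Sesn2 has r below 0 in both (-0.52 and -0.44).

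The degradation group was divided. Edem1 (r = 0.90 and 0.88), Syvn1 (0.88 and 0.83), Sel1l and Derl3 passed in both groups, and Herpud1, the scaffold of the ligase, in wildtype livers (0.83, adjusted p = 0.0164) but not in knockout livers (0.72, adjusted p = 0.055). Derl1 (0.22 and 0.63), Derl2 (0.12 and 0.55), Sec61a1 (0.63 and 0.66) and Sec61b (0.06 and -0.18) passed in neither. Whether r differed between the genotypes was not tested. Among sensors and factors, Xbp1 passed in wildtype livers (r = 0.85, adjusted p = 0.0126) and not in knockout livers (0.66, adjusted p = 0.0984), and the other 6 passed in neither. Ern1 had 0.69 and 0.48, Eif2ak3 0.53 and 0.64, Atf6 0.36 and 0.52, Ddit3 0.25 and 0.43, Atf3 -0.15 and 0.46, and Atf4 -0.33 and 0.50.

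None of the 5 integrated stress response targets passed in either group by this test. Trib3, Chac1 and Sesn2 had r = -0.59, 0.57 and -0.52 in wildtype livers and -0.43, 0.34 and -0.44 in knockout livers. The highest Sesn2 values in wildtype livers, up to 16.7 CPM in B, belonged to livers of low Hspa5, such as B itself at 989 CPM. Trib3 likewise was highest in wildtype B, at 14.2 CPM, and lowest in M, at 2.37 CPM, where Hspa5 was 2370 CPM. Asns had r = 0.50 and 0.45, and Ppp1r15a -0.21 and 0.45.

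**Figure D5:**
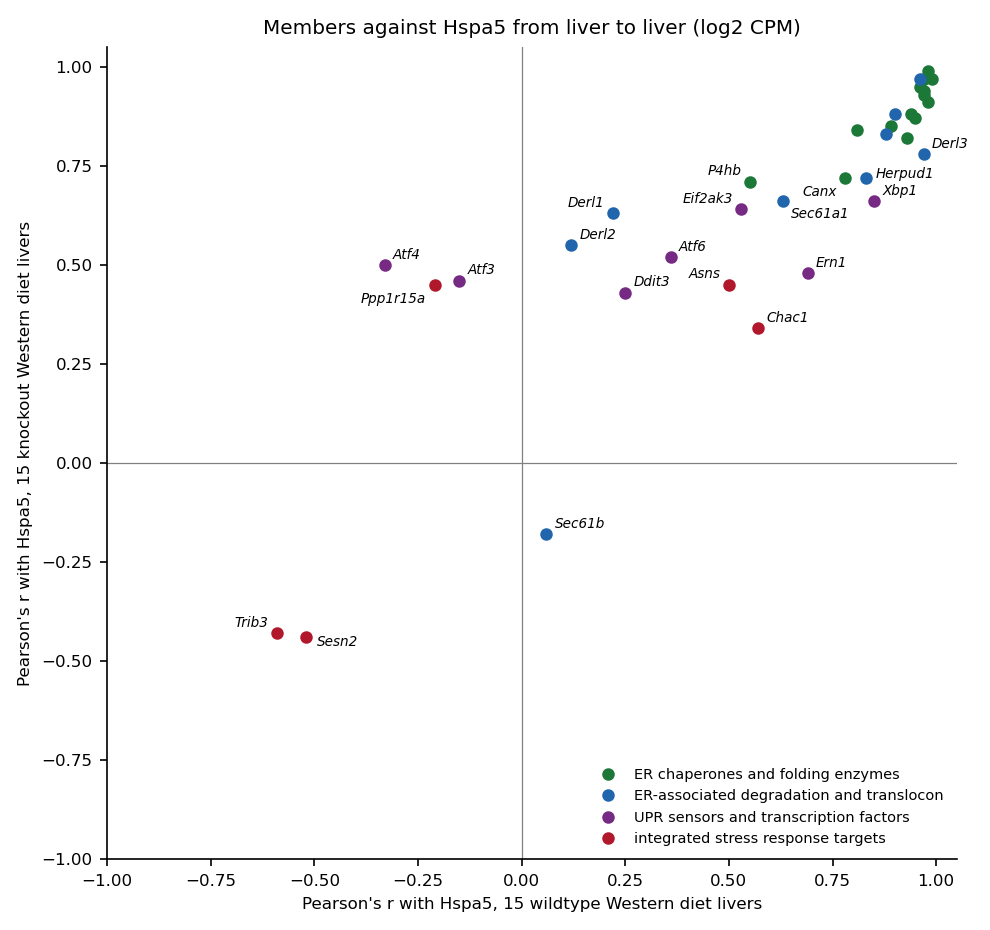
Pearson's r of log2 CPM with Hspa5 for 35 members, over 15 wildtype (x axis) and 15 knockout (y axis) Western diet livers, coloured by role. Members without a name lie in the upper right corner, where chaperones and several degradation genes sit near 1, while Trib3 and Sesn2 are below 0 in both.

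Leaving out the 2 livers farthest from the median of Hspa5 left 15 members past the threshold in wildtype livers (without F and O) and 11 in knockout livers (without E and B), against 3.18% and 0.366% of all genes, and r of Pdia4 stayed at 0.99 and 0.96. Without the library on the side of chow, 20 and 19 members passed, against 6.74% and 2.94% of all genes. Among all libraries the nearest to each other were L and M of the wildtype Western diet group, and 18 members passed with these averaged to 1, against 3.63% of all genes. Other secretory genes followed Hspa5 as lists. Every list relation, here and below, kept L and M as 2 livers. Over 36 relations with list means and the library total, other ER folding enzymes and lectins had r = 0.91 and 0.90 (adjusted p = 0.00036 in both), other translocon and glycosylation genes 0.88 and 0.87, other degradation genes 0.88 and 0.80, and ER-to-Golgi transport 0.68 and 0.70. Without the 2 livers farthest from the median of Hspa5, ER-to-Golgi transport had 0.48 and 0.55, and the others had 0.66 to 0.9. The mean of the 13 other regulators had r = 0.47 (adjusted p = 0.135) in wildtype and 0.66 (adjusted p = 0.0203) in knockout livers. Cytosolic heat shock genes also rose with Hspa5, with r = 0.74 (adjusted p = 0.00708) in wildtype and 0.71 (adjusted p = 0.0106) in knockout livers. The mean of other integrated stress response genes did not pass, with -0.57 (adjusted p = 0.0643) and 0.15 (adjusted p = 0.701).

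Lists of acute phase genes and of neutrophil and macrophage markers passed with a positive r in wildtype Western diet livers. The mean of 26 acute phase genes, which the liver secretes in inflammation, had r = 0.77 (rho = 0.71, adjusted p = 0.00504), and ran from 7.02 through 7.86 to 10.02 in mean log2 CPM. In knockout livers r was 0.50 (adjusted p = 0.108), over means from 7.01 through 7.38 to 9.19. Neutrophil markers had r = 0.72 (adjusted p = 0.00708) and 0.33 (adjusted p = 0.335). Of the 14 neutrophil genes listed, 7 were tested and 0 had no count at all, and their summed level ran from 2.72 to 54.4 CPM in wildtype and from 3.21 to 16.5 CPM in knockout Western diet livers, and from 4.29 to 35.3 CPM and 4.96 to 8.54 CPM in the chow groups. Macrophage and Kupffer cell markers, 14 of 15 tested and 0 without a count, had r = 0.58 (adjusted p = 0.0411) and 0.14 (adjusted p = 0.708). Their summed level was 142 to 808 CPM and 212 to 862 CPM on Western diet, and 233 to 439 CPM and 207 to 393 CPM on chow. Gene by gene in wildtype livers, 8 of 26 acute phase, 1 of 7 neutrophil and 0 of 14 macrophage genes passed, against 6.13% of all genes. In knockout livers 0 genes of each list passed. Stellate cell, endothelial and bile duct lists had r = -0.53, -0.34 and -0.18 in wildtype and -0.11, -0.18 and -0.27 in knockout livers. None of these 3 lists passed (adjusted p 0.0917 to 0.726). The part of any of these cells in the level of Hspa5 was not tested.

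Plasma cells and pancreatic acinar cells are the cell types best known for high ER chaperone levels. B and plasma cell markers, 9 of 12 tested and 0 without a count, had r = -0.21 (adjusted p = 0.621) in wildtype and -0.67 (adjusted p = 0.0203) in knockout livers. Of its 9 genes, 4 had a positive r in wildtype and 0 in knockout livers. Of 16 acinar markers 2 were tested, Cela1 and Ctrl, and Try4 and Try5 had no count in any library. Both had a positive r with Hspa5 in wildtype livers, 0.50 and 0.54, and they ran from -0.28 to 0.01 in knockout livers, with none past the threshold. The acinar list summed to 14.0 to 61.4 CPM over the 39 livers. The part of plasma or acinar cells in the level of Hspa5 was not tested. The mean of hepatocyte markers had r = -0.22 and 0.09, and -0.58 and -0.36 without the 2 livers farthest from the median of Hspa5. Its 14 genes ran from r = -0.9 to 0.81 in wildtype livers. There 1 passed with a positive and 2 with a negative r, against 6.13% of all genes. In knockout livers they ran from -0.52 to 0.51 and 0 passed, against 2.05% of all genes. The log2 library total had r = -0.41 (adjusted p = 0.218) and -0.13 (adjusted p = 0.721). The cholesterol synthesis list had r = -0.56 (adjusted p = 0.0449) in wildtype and -0.13 (adjusted p = 0.721) in knockout livers. Without wildtype A and knockout M, which this list had set apart, r was -0.75 and -0.2. The labels used here give neither the hour at which the livers were taken nor whether the mice had been fasted.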

How the data were processed

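Livers of 39 mice were measured by RNA sequencing, with libraries from the NEBNext Ultra kit read in pairs on a NovaSeq instrument, per the labels. Raw counts for each gene are what the deposited table gives. Per the submitters' processing notes, the tools were STAR 2.7.8a, featureCounts 2.0, FastQC and MultiQC and the genome build was GRCm39. The annotation release and strand setting are not given in the sources used here, so reads of overlapping or antisense genes may not be told apart. Of 55416 identifiers 52083 had a symbol, and these hold 99.4% of all counts. The table had 0 columns without a sample.

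Counts were analysed with edgeR 4.0.16 in R 4.3.3, with filterByExpr by group (minimum count 10, minimum total 15), TMM scaling, 1 model over 4 groups, estimateDisp and glmQLFit with robust estimation and glmQLFTest. The SE is the one implied by the F statistic. The Benjamini-Hochberg adjustment ran over every tested gene and 0.05 was the threshold. CPM is scaled by TMM, log2 CPM uses a prior count of 2, and levels per kb use exon lengths of GENCODE M21 on GRCm38. Correlations used Python 3.11.15 with numpy 2.4.6 and pandas 2.3.3, and adjustment over all genes replaced a planned adjustment over the members. Figures were drawn with matplotlib 3.10.9. The fit and the correlations were tested on simulated data.

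The members and lists were chosen with earlier results of these data known. Full values are given for members past the threshold in any comparison and, per role group, for the 2 with the smallest p between the diets and the 1 with the smallest p in each other comparison. The 3 genes with the smallest p are named per pathway list. Hspa5, Creld2, Derl3, Syvn1 and other members were named in addition, after their values were seen. Nothing in the labels pairs mice by letter. Same-letter livers of the 2 genotypes had deviations with a mean correlation of -0.0104 over 15 pairs on Western diet and -0.0656 over 4 on chow, so no pairing was used. The closest pair, wildtype Western diet L and M, differed by a chi-square of 3.67 per gene against a median of 48.5 over pairs, which is above sampling noise, and both were kept. The alternatives tried were DESeq2 1.42.0, limma 3.58.1 voom with quality weights, RLE scaling, no filter, a covariate for the number in the library name, the letter as a replicate block, fits of the compared groups alone and fits that each lack 1 library. Fits without 4 libraries, or with L and M summed, were added once the data had been seen.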

Additional observations from a re-analysis of the deposited data

Results flagged for a closer look

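Of 72 chow groups of a member tested for a library far from the others, 3 stood out, where chance marks about 1 in 20. Herpud1, the scaffold of the degradation ligase, was lowest in wildtype chow D at 222 CPM, with the other 4 livers between 555 and 755 CPM. Chac1 was highest in wildtype chow A at 11.3 CPM, with the others between 2.97 and 3.78 CPM, and A is one of the 4 libraries on the side of the other diet. Ppp1r15a was highest in knockout chow C at 15.7 CPM, with the others between 12.1 and 12.5 CPM.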

How the results depend on the processing

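Without the 4 libraries on the side of the other diet, 3 members were called in wildtype, 7 in knockout and 10 in both genotypes together, against 0, 0 and 5 with all livers (8.66%, 17.2% and 29.9% of all genes, against 1.39%, 0.00654% and 14.6%). Limma voom with quality weights called 1, 3 and 8, against 6.67%, 5.26% and 23.7% of all genes. DESeq2 called 1 in knockout mice (1.5% of all genes), and the fit without a filter 2 for both genotypes together (3.47%). Leaving out single libraries gave 0 to 1 members in wildtype mice (1 without wildtype chow A), 0 to 4 in knockout mice (4 without knockout chow D, 1 without knockout Western diet M) and 1 to 7 in both together (1 without knockout chow B, 2 without knockout chow C or wildtype chow D, 3 without knockout chow A), where 5.33% to 22.6% of all genes were called. The genotype comparisons and the interaction stayed at 0 in every fit run. The replicate block, which the labels do not warrant, gave 4 members for both genotypes together (13.6% of all genes), lost Atf4 (-0.22, adjusted p = 0.288) and Chac1 (0.91, adjusted p = 0.129), and called Sec61a1 (0.45, adjusted p = 0.0495). In that fit the counts of the other 5 comparisons were 0. Reversed, uncalled before and after, were Sec61b between genotypes on Western diet with the library number as a covariate (0.01), Trib3 between genotypes on chow with limma voom (-0.07) and without the 4 libraries (-0.08), and Asns in the interaction without knockout chow A (0.21, with -1.12 as the lowest value without 1 library). The causes were not tested. With 9 chow livers, of which 2 lie on the side of Western diet, small changes may have been missed.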
